A study of Mus musculus with 2 samples.

Results

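The 10 genes described here are the AP-1 subunit genes Fos, Fosb, Fosl1, Fosl2, Jun, Junb and Jund, and the immediate early genes Egr1, Ier2 and Dusp1. They were taken by name, and all 10 were found among the 32285 genes of each library. Their UMIs (unique molecular identifiers, 1 per captured RNA molecule) were counted in 2 single-cell libraries of bone marrow cells from female C57BL/6 mice aged 10 weeks. The cells had been cultured for 4 days in GM-CSF (50 ng/mL) plus IL-6 (50 ng/mL), cytokines that drive bone marrow to become myeloid-derived suppressor cells (MDSCs). The DAB library came from a culture given 1.5 µM dabrafenib, an inhibitor of RAF kinases, and the DMSO library from a culture given an equal volume of the solvent. Both libraries thus share the cytokines, strain, sex and age, and the labels name no altered allele. How many mice gave the marrow was not stated in the methods or labels used here. With 1 library per condition no test of the drug was possible, and every interval below covers counting error only.

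After filtering, 9032 DMSO cells held 92410603 UMIs (median 7539.5 per cell) and 10476 DAB cells held 141225453 UMIs (median 9564.5). The myeloid label fitted most cells, since Itgam, which encodes CD11b, was detected in 81.7% of the DMSO library's cells and 84.2% of the DAB library's. A B cell-like cluster of 160 DMSO and 210 DAB cells was also present. The 2 libraries shared 152 cell barcode sequences.

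AP-1 is a dimer of a Fos and a Jun protein, or of 2 Jun proteins, that binds DNA through paired basic leucine zippers. In most cells Fos, Fosb and Egr1 are transcribed within minutes of a growth factor or cytokine signal, through ERK and the serum response factor, and their RNAs decay quickly. Fosl1 and Fosl2 follow more slowly, and Jund is present in resting cells. Dusp1 encodes a phosphatase that switches off MAP kinases, and Ier2 a small nuclear protein of the early response. The study that made these libraries reported that dabrafenib raised ERK phosphorylation in MDSC cultures and activated the stress kinase GCN2. From cultures given a MEK inhibitor it concluded that raised MAPK activity did not account for what the drug did to MDSCs. It also scored regulons, the predicted target genes of a transcription factor, in these libraries. Regulons linked to Jun and Fos factors were reported lower with dabrafenib, and that of Fosl2 was enriched in controls. How any of these reports relates to the values below was not tested.

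Promoter sequences of 7 of the 10 genes were matched in RefSeq (build GRCm38.p6), and those of Fosl1, Egr1 and Ier2 were not. The 250 bases upstream of the RefSeq start are shown for Fos and Fosb, the members with the greatest difference between the libraries, and for Junb and Jun, which differed less. They read 5′ to 3′ on the gene's strand, and capitals mark the half-site TGACG of the cyclic AMP response element.

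Fos, chr12:85473640-85473889, plus strand: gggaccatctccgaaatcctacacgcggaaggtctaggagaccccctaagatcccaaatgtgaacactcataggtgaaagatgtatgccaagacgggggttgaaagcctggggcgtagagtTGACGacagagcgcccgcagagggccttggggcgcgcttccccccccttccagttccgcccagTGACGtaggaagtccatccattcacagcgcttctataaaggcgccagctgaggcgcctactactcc

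Fosb, chr7:19310046-19310295, minus strand: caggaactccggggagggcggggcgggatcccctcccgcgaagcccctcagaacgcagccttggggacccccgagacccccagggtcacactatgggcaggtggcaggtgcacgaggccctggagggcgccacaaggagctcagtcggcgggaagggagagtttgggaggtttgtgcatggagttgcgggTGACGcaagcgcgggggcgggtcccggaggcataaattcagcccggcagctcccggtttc

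Junb, chr8:84978749-84978998, minus strand: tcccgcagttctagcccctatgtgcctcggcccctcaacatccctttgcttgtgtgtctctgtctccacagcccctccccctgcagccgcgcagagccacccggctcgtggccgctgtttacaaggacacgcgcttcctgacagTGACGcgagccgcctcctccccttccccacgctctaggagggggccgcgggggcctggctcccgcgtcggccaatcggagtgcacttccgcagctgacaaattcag

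Jun, chr4:95052223-95052472, minus strand: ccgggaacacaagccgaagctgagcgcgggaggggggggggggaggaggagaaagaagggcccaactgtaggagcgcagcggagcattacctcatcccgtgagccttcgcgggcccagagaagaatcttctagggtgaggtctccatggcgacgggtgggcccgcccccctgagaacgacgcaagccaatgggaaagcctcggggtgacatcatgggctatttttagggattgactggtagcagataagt

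The half-site TGACG occurred at 2 places upstream of Fos, from 129 and from 66 bases before the start. It occurred once upstream of Fosb, from 60 bases before the start, and once upstream of Junb, from 106 bases. No TGACG was found on either strand of the Jun window. On either strand, 17.8% of the 32851 RefSeq promoter windows of this length held TGACG. Neither the full element TGACGTCA (1.55% of windows), nor the AP-1 site TGANTCA (6.75%), nor a CArG box, the serum response factor's site (1.47%), was found in the 4 windows shown. Of the matched genes not shown, Dusp1 held TGACGTCA from 143 bases before its RefSeq start, and Fosl2 and Jund held none of these sites. The gene start in the GENCODE annotation lay 671 bases upstream of the RefSeq start for Fosl2 and 53656 upstream for Dusp1. For Jund it lay 1210 bases downstream. For the 4 genes shown the starts lay within 30 bases of each other, so the other windows may not be comparable with these. TGACGTCA contains TGACG, so these searches overlap. Sites more than 250 bases upstream, or spelled differently from these patterns, were not searched for. A site not found here may therefore still be present at the gene. A match describes these letters and not binding, and windows that held TGACG belonged both to genes with large and to genes with small differences. In the annotation (GENCODE, GRCm38) the Fos gene spans chr12:85473890-85477273 and the Fosb gene chr7:19302696-19310051. No gene on the same strand overlapped any of the 4, and on the opposite strand Junos overlapped Jun and Prdx2 overlapped Junb.

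The libraries differed most in the early Fos genes. Levels are given as CPM, the gene's UMIs per 1000000 UMIs of the same cells. Ratios are log2 of DAB over DMSO, and a gene is called lower or higher at a log2 ratio of 0.5 or more in size. Fos was counted 3468 times in the DMSO and 1068 times in the DAB library, so its level was 37.5 CPM (95% interval 36.3 to 38.8) against 7.56 CPM (7.12 to 8.03). This made Fos 4.96-fold lower in DAB (log2 ratio −2.31, interval −2.41 to −2.21). Fosb was counted 523 times in DMSO and 25 times in DAB, at 5.66 CPM (5.18 to 6.17) and 0.177 CPM (0.115 to 0.261). The difference of Fosb was 32.0-fold (log2 ratio −5.00, interval −5.64 to −4.42). Among the 13316 genes with at least 100 UMIs in the 2 libraries together, Fosb had the 15th lowest ratio and Fos the 92nd lowest. Fosb entered this ranking through its DMSO UMIs, so its rank is not independent of its direction.

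The late Fos genes differed much less. Fosl2, which encodes FRA2, stood at 78.8 CPM in DMSO and 53.7 CPM in DAB (log2 ratio −0.55, interval −0.60 to −0.51). Fosl1, which encodes FRA1, stood at 24.3 and 22.1 CPM (−0.14, −0.22 to −0.06).

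Of the Jun genes, Junb stood at 413 CPM in DMSO and 284 CPM in DAB (log2 ratio −0.54, interval −0.56 to −0.52). Jund stood at 333 CPM in DMSO and 369 CPM in DAB (0.15, 0.13 to 0.17). Jun stood at 94.8 CPM in DMSO and 81.7 CPM in DAB (−0.22, −0.26 to −0.18). Junb was thus the one Jun gene past the fold, and only just.

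The immediate early genes outside AP-1 stayed within the fold used for calls. Egr1, a zinc finger transcription factor, stood at 87.6 and 62.0 CPM, and its log2 ratio of −0.497 (interval −0.54 to −0.45) lay just inside the threshold. Dusp1 stood at 18.5 and 14.4 CPM (−0.36, −0.45 to −0.27). Ier2 stood at 96.9 and 98.2 CPM (0.02, −0.02 to 0.06).

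Over the 10 genes, all of which passed the floor of 100 UMIs, 4 were lower in DAB (Fos, Fosb, Fosl2 and Junb) and 0 were higher. Over all genes tested, 16.3% were lower and 13.9% higher by the same rule. Fosb passed the floor through its 523 DMSO UMIs, beside 25 in DAB, so its place in the count is not independent of its direction. The median log2 ratio of the 10 genes was −0.43, beside −0.01 over all genes tested. In UMIs per cell, with no scaling, Fos averaged 0.384 in DMSO and 0.102 in DAB, while Jund averaged 3.41 and 4.97. The count of 4 was 2 when each cell was thinned to 1500 UMIs or weighted equally, with Fos and Fosb the pair that stayed lower.

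**Figure D1:**
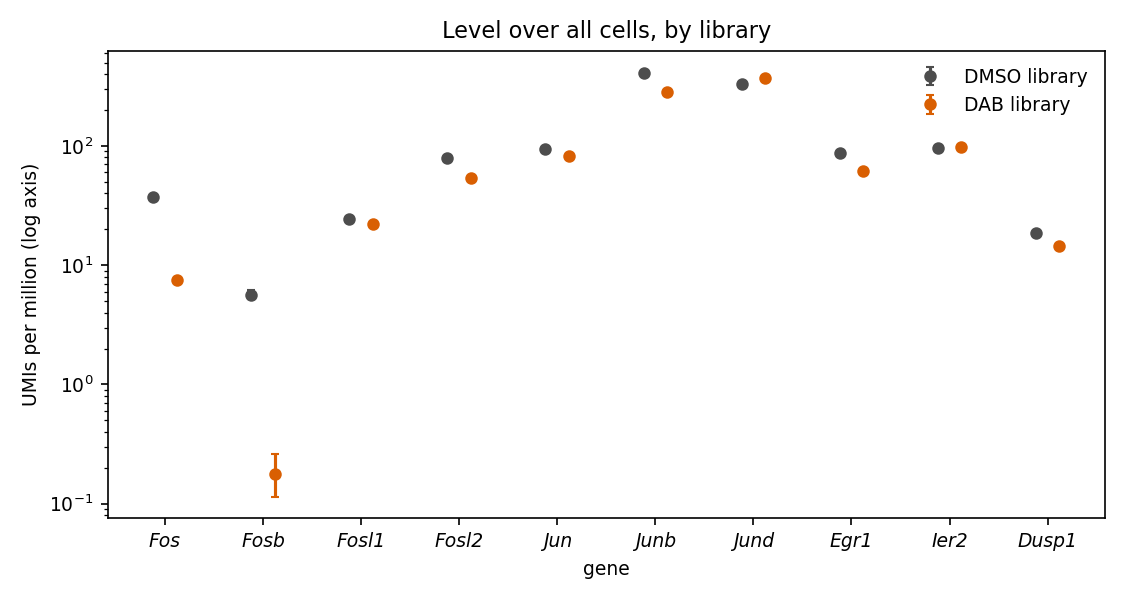
Level of each gene over all filtered cells, in CPM on a log axis, for the DMSO library (grey) and the DAB library (orange), with 95% Poisson intervals, most of them smaller than the points. Fos and Fosb stand far apart between the libraries, at 37.5 and 7.56 CPM and at 5.66 and 0.177 CPM, while the other 8 genes lie close together.

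Cells were clustered without these 10 genes and 34 other immediate early genes, so that classes were not drawn by the genes described. Of 27 clusters, 24 held at least 50 cells of each library. Classes named from marker genes were described where each library gave at least 100 cells, which left 9 of 10 named classes. These 9 were granulocyte progenitor, intermediate granulocyte, mature PMN (polymorphonuclear cell), chemokine-high granulocyte, immature monocyte, mature monocyte, macrophage, activated dendritic and B cell-like cells. Unnamed clusters, called below by a letter and their leading genes, held 45.2% of the DMSO library and 48.6% of the DAB library, and the tenth class, basophil or mast cell-like, was too small.

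Fos passed the floor of 100 UMIs in 5 of the 9 classes and was lower in DAB in all 5. In another 3 classes, which held fewer UMIs (granulocyte progenitor-, macrophage- and B cell-like cells), the interval of the ratio also lay below 0. In mature and immature monocyte-like cells Fos passed the floor through its DMSO UMIs (388 and 557), beside 62 and 40 in DAB. Its place among the 5 is there not independent of its direction. Mature monocyte-like cells (521 DMSO and 613 DAB cells) led with Ccl17, also a listed marker of the activated dendritic class, and then MHC class II genes. In them Fos was counted 388 times at 36.8 CPM in DMSO and 62 times at 3.39 CPM in DAB. Fos had its lowest ratio of a class there (log2 ratio −3.44, interval −3.85 to −3.05). In intermediate granulocyte-like cells (1941 and 1361 cells) it stood at 42.8 and 7.12 CPM (−2.59, −2.90 to −2.29). Within the 3 clusters of that class the ratio was −3.81 in cluster G, led by the granule genes Camp, Ltf and Ngp, −2.20 in cluster B, led by S100a9 and S100a8, and −2.08 in cluster P, led by Retnlg. The mix of these clusters differed between libraries, since cluster G gave 833 cells in DMSO and 189 in DAB.

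Immature monocyte-like cells (1205 and 365 cells), led by Slc7a2, Nos2 and Mmp12, held Fos at 25.2 CPM in DMSO and 5.28 CPM in DAB (−2.26, −2.76 to −1.79). Granulocyte progenitor-like cells (188 and 119 cells), led by Elane, Mpo and Prtn3, held 31.9 and 6.41 CPM (−2.31, −3.14 to −1.56). Their median depth also differed, at 10539 UMIs per DMSO and 24277 per DAB cell. Mature PMN-like cells (207 and 921 cells) held 68.4 and 16.4 CPM (−2.06, −2.53 to −1.60). Of these classes the mature PMN-like cells held the highest DMSO level of Fos.

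The smallest differences were in 3 classes. Chemokine-high granulocyte-like cells (344 and 1465 cells) kept the highest Fos level of any class in both libraries. It stood at 78.3 CPM in DMSO and 32.4 CPM in DAB (log2 ratio −1.27, interval −1.56 to −0.98). Cluster F of this class leads with Ccl3, Atp6v0d2 and Hcar2, and cluster L with Mmp13, Cxcl2 and Cxcl3. Gpnmb is among the 10 leading genes of both. All 5 markers of this class are chemokine genes. Its granulocyte name thus rests only on S100a8 or Csf3r exceeding the rest. Macrophage-like cells (175 and 142 cells), which carry C1q genes, held 50 UMIs at 27.2 CPM and 28 UMIs at 14.1 CPM (−0.95, −1.67 to −0.25). Activated dendritic-like cells (158 and 103 cells), led by Ccl5, Ccl22 and Ccr7, held 14 UMIs at 5.23 CPM in DMSO and 10 UMIs at 5.90 CPM in DAB (0.17, −1.16 to 1.45). Their DMSO level of Fos was the lowest of the 9 classes, and below their DAB level in order. The interval of this last ratio still spans differences of more than 2-fold in either direction.

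B cell-like cells, the class outside the myeloid lineage, held 26 Fos UMIs at 35.2 CPM in DMSO and 6 at 5.40 CPM in DAB (−2.71, −4.28 to −1.39). These counts lie below the floor of 100 UMIs, and the shares of cells with a Fos UMI after thinning each cell to 1500 UMIs, 5.56% (2.43 to 10.7%) and 1.58% (0.327 to 4.54%), have overlapping intervals.

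By cluster, Fos was lower in 23 of the 24, where 18% of all gene and cluster pairs with at least 20 UMIs were lower. The exception was cluster W, the activated dendritic-like cells. Over the 24 clusters the DMSO level ran from 5.23 to 114 CPM (median 36.2) and the DAB level from 1.45 to 53.5 CPM (median 6.49). The 4 highest DMSO levels were in clusters R, F, A and H, whose median depths of 3399, 3280.5, 2955.5 and 4173 UMIs per cell were low for these libraries. Cluster R is led by Gm26917, Gria3 and St6galnac3, with the nuclear RNA Neat1 further down its leading genes, and cluster A by Csf3r, Ddt and Lst1. The ratio varied with depth. In cells with fewer than 3000 UMIs Fos stood at 71.5 and 22.5 CPM (−1.67, −2.07 to −1.27), and in cells with 10000 UMIs or more at 29.1 and 5.30 CPM (−2.46, −2.59 to −2.33).

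**Figure D2:**
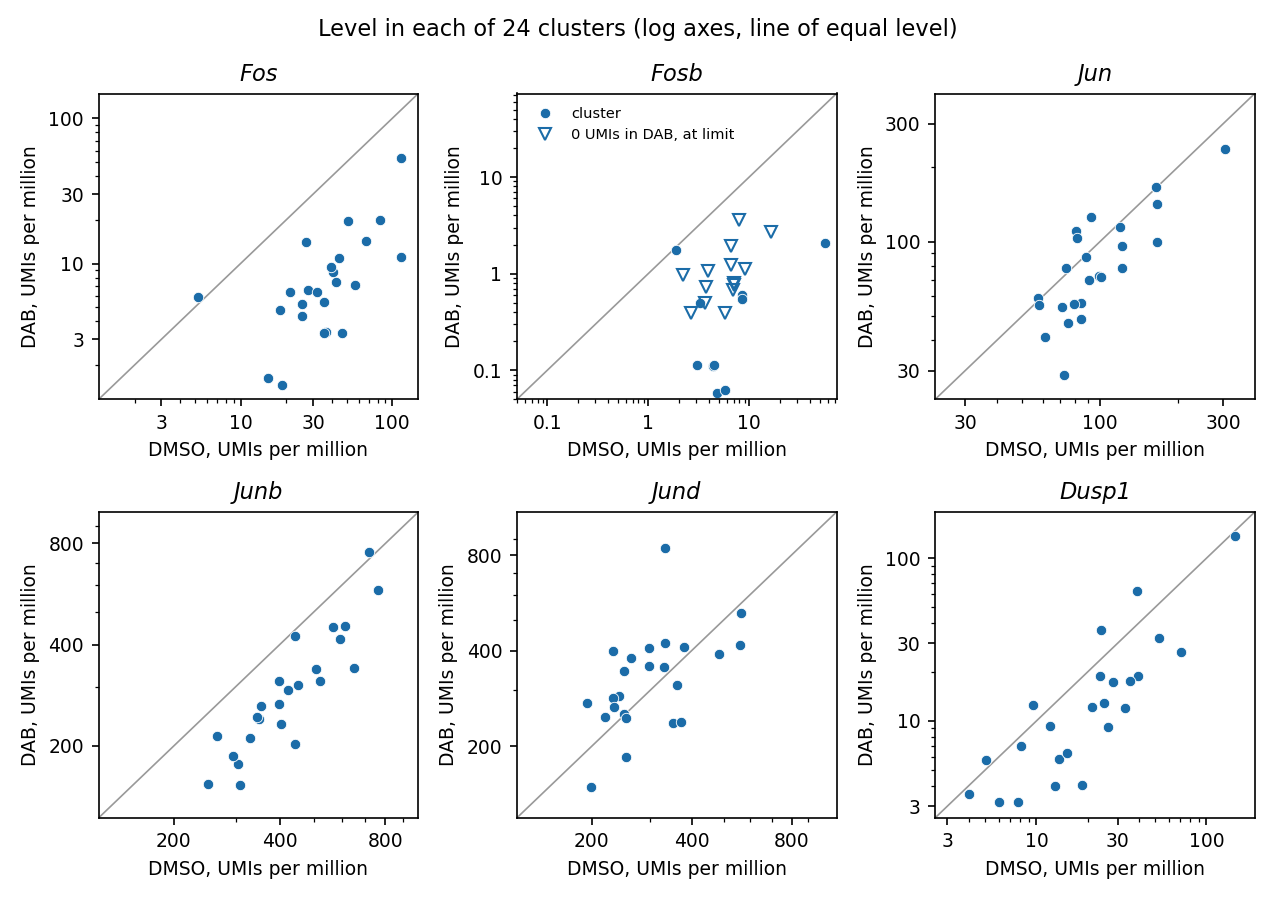
Level of 6 genes in each of 24 clusters, in CPM on log axes, with DMSO on the horizontal and DAB on the vertical axis, and a line of equal level. Open triangles mark clusters with 0 DAB UMIs, drawn at the level of 3 UMIs. For Fos 23 of 24 clusters lie below the line, Junb lies somewhat below it in 23, and Jund scatters on both sides, with B cell-like cells highest in DAB at 841 CPM.

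Fosb was rare, and its 523 DMSO UMIs were spread over named and unnamed clusters, with 41 in cluster K, led by Gm15564 and Lars2, and 39 in cluster R. In mature monocyte-like cells, the one class in which it passed the floor of 100 UMIs, it was counted 90 times at 8.54 CPM in DMSO and 11 times at 0.602 CPM in DAB (log2 ratio −3.83, interval −4.88 to −2.92). Intermediate granulocyte-like cells held 98 DMSO UMIs and 0 DAB UMIs, which makes Fosb at least 36.6-fold lower, taking 3 counts as the limit for 0 and the DMSO count as exact. By the same limit it was at least 10.6-fold lower in mature PMN-like cells (8 and 0 UMIs), 6.64-fold in immature monocyte-like cells (58 and 0), 6.02-fold in B cell-like cells (12 and 0) and 3.63-fold in granulocyte progenitor-like cells (9 and 0). The exact intervals, which allow for error in both counts, are weaker, with upper ends of the log2 ratio at −4.87 in intermediate granulocyte-like, −2.76 in mature PMN-like, −2.39 in immature monocyte-like, −2.06 in B cell-like and −1.25 in granulocyte progenitor-like cells. Chemokine-high granulocyte-like cells held 11 and 2 UMIs (−4.81, −8.02 to −2.61).

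In macrophage-like cells the counts were 6 and 1 (log2 ratio −2.70, interval −8.22 to 0.35), and in activated dendritic-like cells 5 and 3 (−0.08, −2.77 to 2.28). These counts are too few for a direction. Of the 24 clusters, 14 held 0 Fosb UMIs in DAB. Cluster R stood apart in DMSO, with 39 Fosb UMIs at 56.3 CPM, against 3 UMIs at 2.09 CPM in DAB, and without cluster R the ratio over all cells was −5.07.

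Fosl2 differed by class. It was lower in mature monocyte-like cells, from 76.8 CPM in DMSO to 33.3 CPM in DAB (log2 ratio −1.21, interval −1.36 to −1.05), in granulocyte progenitor-like cells, from 48.6 to 26.4 CPM (−0.88, −1.33 to −0.45), and in activated dendritic-like cells, from 55.3 to 37.8 CPM (−0.55, −0.998 to −0.12). The progenitor-like value was −0.12 without cell cycle regression. In intermediate granulocyte-like cells Fosl2 stood at 84.9 and 60.8 CPM (−0.48, −0.61 to −0.35), just inside the fold. Within clusters B, G and P of that class its log2 ratio was −0.79, −0.53 and −0.51. Immature monocyte-like cells held 72.1 and 55.5 CPM (−0.38, −0.54 to −0.22). By cluster, Fosl2 was lower in 14 of 24 and higher in 0, where 18% of gene and cluster pairs were lower. In chemokine-high granulocyte-like cells it stood at 75.2 and 68.3 CPM (−0.14, −0.40 to 0.13). Mature PMN-like cells held the most Fosl2 in both libraries, 113 and 93.1 CPM (−0.28, −0.56 to 0.01).

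Fosl1 was highest in the 4 classes named as granulocytes or PMN. Intermediate granulocyte-like cells held 62.2 CPM in DMSO and 48.3 CPM in DAB (−0.36, −0.51 to −0.22), the highest levels of a class. Mature PMN-like cells held 31.3 and 32.5 CPM, and chemokine-high granulocyte-like cells 23.0 and 31.8 CPM (0.47, 0.01 to 0.96). Immature monocyte-like cells held 18.0 and 21.6 CPM, below each granulocyte class. Mature monocyte-like cells held 41 UMIs at 3.89 CPM and 30 UMIs at 1.64 CPM, and activated dendritic-like cells 1 and 3 UMIs.

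Jun was called lower in some classes and, under the main setting, higher in no class. It was lower in granulocyte progenitor-like cells, at 75.3 CPM in DMSO and 46.7 CPM in DAB (log2 ratio −0.69, interval −1.03 to −0.36), in intermediate granulocyte-like cells, at 104 and 67.0 CPM (−0.63, −0.75 to −0.51), in immature monocyte-like cells, at 84.5 and 56.5 CPM (−0.58, −0.74 to −0.43), and in macrophage-like cells, at 61.4 and 41.2 CPM (−0.58, −1.004 to −0.15). Within the clusters of the intermediate granulocyte-like class the log2 ratio of Jun was −0.37 in B, −0.63 in G and −0.08 in P. The mix of these clusters differed between the libraries, and its part in the class value was not tested. In mature monocyte-like cells, where Fos was lowest against DMSO, Jun stood at 92.1 CPM in DMSO and 126 CPM in DAB (0.45, 0.35 to 0.56), inside the fold. The highest Jun level was in chemokine-high granulocyte-like cells, 201 and 149 CPM, and within them in cluster F, 306 and 236 CPM. The macrophage-like value was −0.05 when cells were weighted equally, the immature monocyte-like value was −0.48 when the held-out genes were among the clustering genes, and the progenitor-like value was 0.61 when the cell cycle was not regressed out before clustering.

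Junb was lower in 4 classes, macrophage-like (250 and 154 CPM, log2 ratio −0.69), immature monocyte-like (329 and 210 CPM, −0.64), mature monocyte-like (509 and 339 CPM, −0.58) and intermediate granulocyte-like cells (421 and 296 CPM, −0.51). B cell-like cells held Junb at 718 and 756 CPM (0.07, −0.08 to 0.23) and activated dendritic-like cells at 441 and 425 CPM (−0.05, −0.19 to 0.08), so that neither reached the fold. The intermediate granulocyte value stayed between −0.26 and −0.46 under 7 of 8 other settings and is close to the threshold. Within the clusters of that class the log2 ratio of Junb was −0.74 in B, −0.79 in G and −0.93 in P. The mix of these clusters differed between the libraries, and its part in the class value was not tested. The mature monocyte-like value was −0.24 when doublets were kept, and the immature monocyte-like value −0.46.

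Jund, the subunit of resting cells, was higher in B cell-like cells, at 332 CPM in DMSO (245 UMIs) and 841 CPM in DAB (934 UMIs), a log2 ratio of 1.34 (interval 1.14 to 1.55). It was also higher in granulocyte progenitor-like cells, at 193 and 274 CPM (0.50, 0.33 to 0.68), and lower in macrophage-like cells, at 351 and 237 CPM (−0.56, −0.74 to −0.39). Mature monocyte-like cells held the most in DMSO, 565 CPM, and 524 CPM in DAB (−0.11, −0.16 to −0.06). The progenitor-like value was 0.38 and the macrophage-like value −0.19 with cells weighted equally, and the B cell-like value stayed between 1.24 and 1.40.

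**Figure D3:**
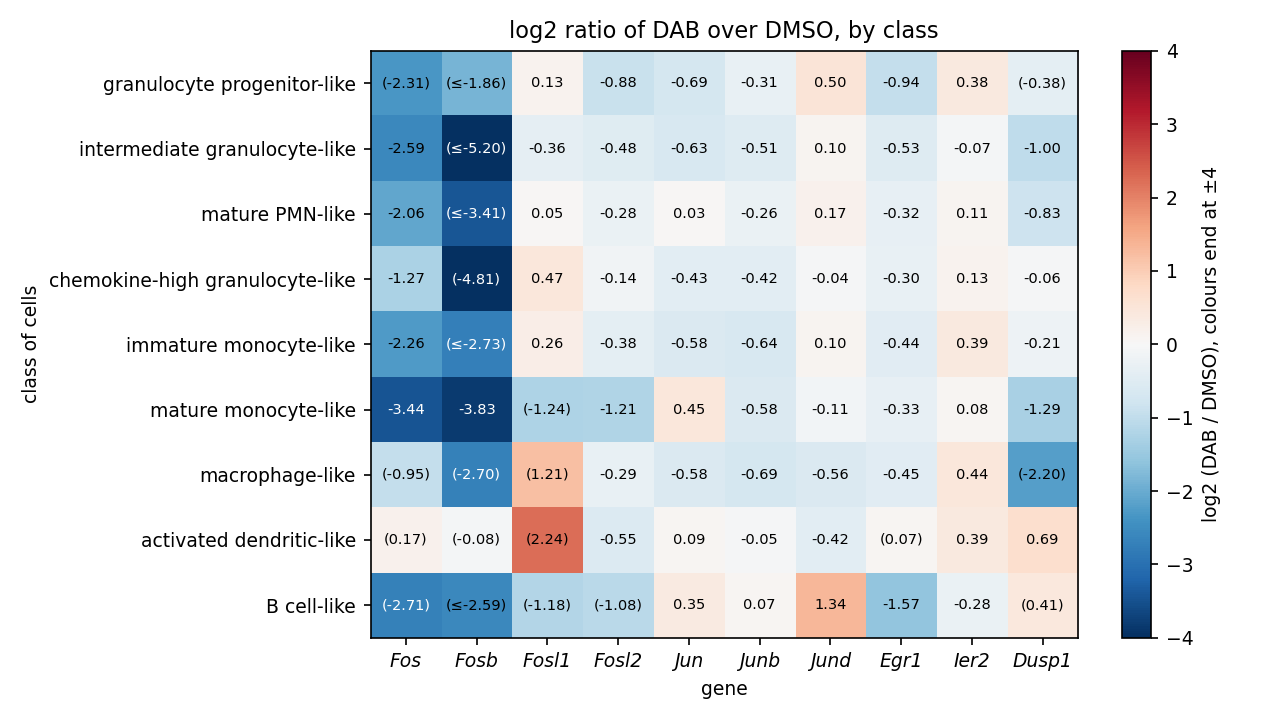
Log2 ratio of DAB over DMSO for each gene (columns) in each of 9 classes (rows), blue for lower and red for higher in DAB. Values in brackets rest on fewer than 100 UMIs in the 2 libraries together, and ≤ marks an upper bound set by 0 DAB UMIs taken as 3. The Fos column is blue in 8 of 9 rows, and Jund in B cell-like cells (1.34) is the largest value above 0 among those that rest on 100 UMIs or more.

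Egr1 was lower in B cell-like cells, where its level was highest, at 369 CPM in DMSO (272 UMIs) and 124 CPM in DAB (138 UMIs), a log2 ratio of −1.57 (interval −1.88 to −1.27). In the same cells Junb did not reach the fold and Jund was higher, so the members moved in both directions within 1 class. Egr1 was also lower in granulocyte progenitor-like cells, at 52.5 and 27.4 CPM (−0.94, −1.37 to −0.51), and in intermediate granulocyte-like cells, at 81.5 and 56.6 CPM (−0.53, −0.66 to −0.39). Activated dendritic-like cells held the least, 21 UMIs at 7.85 CPM and 14 UMIs at 8.26 CPM. The intermediate granulocyte-like value lay inside the fold under 6 of 8 other settings, and the progenitor-like value was −0.20 without cell cycle regression. In the other 5 classes the ratio lay between −0.45 and −0.30.

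Dusp1 was lower in mature monocyte-like cells, at 7.78 CPM in DMSO (82 UMIs) and 3.17 CPM in DAB (58 UMIs), a log2 ratio of −1.29 (interval −1.80 to −0.79). It was lower in intermediate granulocyte-like cells, at 27.0 and 13.5 CPM (−1.001, −1.26 to −0.75), and in mature PMN-like cells, at 38.7 and 21.7 CPM (−0.83, −1.34 to −0.31). In chemokine-high granulocyte-like cells, which held the most, it stood at 77.3 and 74.2 CPM (−0.06, −0.32 to 0.21). In activated dendritic-like cells it was higher in DAB, at 38.9 CPM (104 UMIs) and 62.5 CPM (106 UMIs), a log2 ratio of 0.69 (interval 0.28 to 1.09), which was 0.39 when doublets were kept. The mature PMN-like value was −0.18 at a clustering resolution of 0.5. By cluster, the median log2 ratio of Dusp1 was −0.86. It was lower in 15 of 24, where 18% of gene and cluster pairs were lower. It was higher in 2, and the share of pairs that were higher was not counted. The ratio of Dusp1 varied with depth. It was 0.15 in cells with fewer than 3000 UMIs, 0.24 in cells with 3000 to 10000 and −0.46 in cells with 10000 or more. The ratio over all cells, −0.36, was −0.57 when the DMSO mix of clusters was applied to both libraries and 0.24 over the described classes alone.

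Ier2 had no class past the fold under the main setting. Under other settings its log2 ratio reached 0.74 in macrophage-like and 0.51 in activated dendritic-like cells. In the main setting its log2 ratio lay between −0.28 in B cell-like cells (168 and 139 CPM) and 0.44 in macrophage-like cells (52.2 and 70.9 CPM).

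Set beside the other genes measured in the same cells, the counts by class were as follows. In mature monocyte-like cells 5 of 9 members that passed the floor of 100 UMIs were lower (Fos, Fosb, Fosl2, Junb and Dusp1), where 18.7% of genes were. Fos and Fosb passed this floor through their DMSO UMIs (388 and 90), beside 62 and 11 in DAB. Their places in the count are thus not independent of their direction. In intermediate granulocyte-like cells 5 of 9 were lower (Fos, Jun, Junb, Egr1 and Dusp1), beside 13.3% of genes. Of these, Jun passed the fold within cluster G but not within clusters B and P of that class. Egr1 passed it within B and G but not within P (−0.18). Fosl2, at −0.48 outside the count, passed it within B, G and P. The class values of Junb and Egr1 came inside the fold under most other settings. In immature monocyte-like cells 3 of 9 were lower (Fos, Jun and Junb), beside 16.1%. There Fos passed the floor through its 557 DMSO UMIs, beside 40 in DAB, with the same limit. In granulocyte progenitor-like cells 3 of 7 were lower (Fosl2, Jun and Egr1), beside 16.6%, and in macrophage-like cells 3 of 6 (Jun, Junb and Jund), beside 15%. Neither count held under every setting. Without cell cycle regression the progenitor-like values of Fosl2, Jun and Egr1 were −0.12, 0.61 and −0.20, none of them lower. With cells weighted equally the macrophage-like values of Jun and Jund were −0.05 and −0.19.

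The count was 2 of 9 in mature PMN-like cells (Fos and Dusp1), beside 8.37% of genes, and 1 of 9 in chemokine-high granulocyte-like cells (Fos), beside 11.6%. It was 1 of 6 in activated dendritic-like cells (Fosl2), beside 16%, and 1 of 5 in B cell-like cells (Egr1), beside 12.4%. The last 3 counts, in chemokine-high granulocyte-, activated dendritic- and B cell-like cells, are near the background. Members under the floor, such as Fos in 4 of the smaller classes, are not in these counts. The floor sums the 2 libraries, so any other member with few DAB UMIs passes it mainly through DMSO and carries the same limit.

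For the share of cells in which a gene was detected, each cell was thinned to 1500 UMIs, which kept 8596 DMSO and 10187 DAB cells. Fos was found in 558 DMSO cells, 6.49% (95% exact interval 5.98 to 7.03%), and in 181 DAB cells, 1.78% (1.53 to 2.05%). On all UMIs the shares of Fos were 23.2% and 7.41%. Fosb was found in 78 DMSO cells, 0.907% (0.718 to 1.13%), and in 3 DAB cells, 0.0294% (0.00607 to 0.0860%). The share of Junb was 44.8% in DMSO and 36.4% in DAB, and that of Jund 34.7% and 36.7%. After thinning few cells held more than 1 Fos UMI: 5.58% of DMSO cells held 1 and 0.872% held 2 to 4. At so few UMIs the share of cells follows the level. Fewer cells with Fos and less Fos per cell could therefore not be told apart.

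Among classes the thinned share of Fos in DMSO was highest in chemokine-high granulocyte-like cells, 12.6% of 317 cells against 5.07% of 1419 DAB cells. In intermediate granulocyte-like cells it was 5.77% of 1836 against 0.666% of 1351 cells, and in mature monocyte-like cells 5.38% of 520 against 0.490% of 612 cells. In activated dendritic-like cells 0 of 157 DMSO cells held a Fos UMI after thinning, which allows a share of up to 1.91% by the limit of 3 counts and 2.32% by the exact interval, and 1 of 103 DAB cells did. No class that should lack these genes was present, so the level of stray RNA could not be read here. In DAB the lowest thinned share above 0 was that of the mature monocyte-like cells. Larger counts were rarer in DAB for Junb too, which reached 5 UMIs or more in 81 DMSO and 53 DAB cells after thinning.

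The members were next counted in the same cells, after thinning to 5000 UMIs (6048 DMSO and 7233 DAB cells). Fos and Fosb were found together in 59 DMSO cells, where the product of their shares gives 24.04, a ratio of 2.45 (95% interval 1.87 to 3.17). Fosb and Dusp1 were found together in 33 DMSO cells against 12.1 (2.73, 1.88 to 3.83), and Fos and Dusp1 in 114 against 67.8 (1.68, 1.39 to 2.02). Fos and Egr1 shared 363 cells against 272 (1.33, 1.20 to 1.48). These early genes were thus found in the same DMSO cells more often than the product of shares gives, whereas Fos and Jund shared 603 cells against 604 (0.998, 0.92 to 1.08).

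In DAB the pairs that could be read rest on fewer cells. Fos and Dusp1 shared 29 cells against 14.5 (2.00, 1.34 to 2.87), and Fos and Egr1 81 against 56.8 (1.43, 1.13 to 1.77). Fos and Fosb shared 0 cells, where the product gives 0.166, and Fosb and Dusp1 shared 1 against 0.302, so neither pair could be read in DAB. These ratios were taken over all cells together, so differences in level between classes enter them as well as differences between cells of a class.

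**Figure D4:**
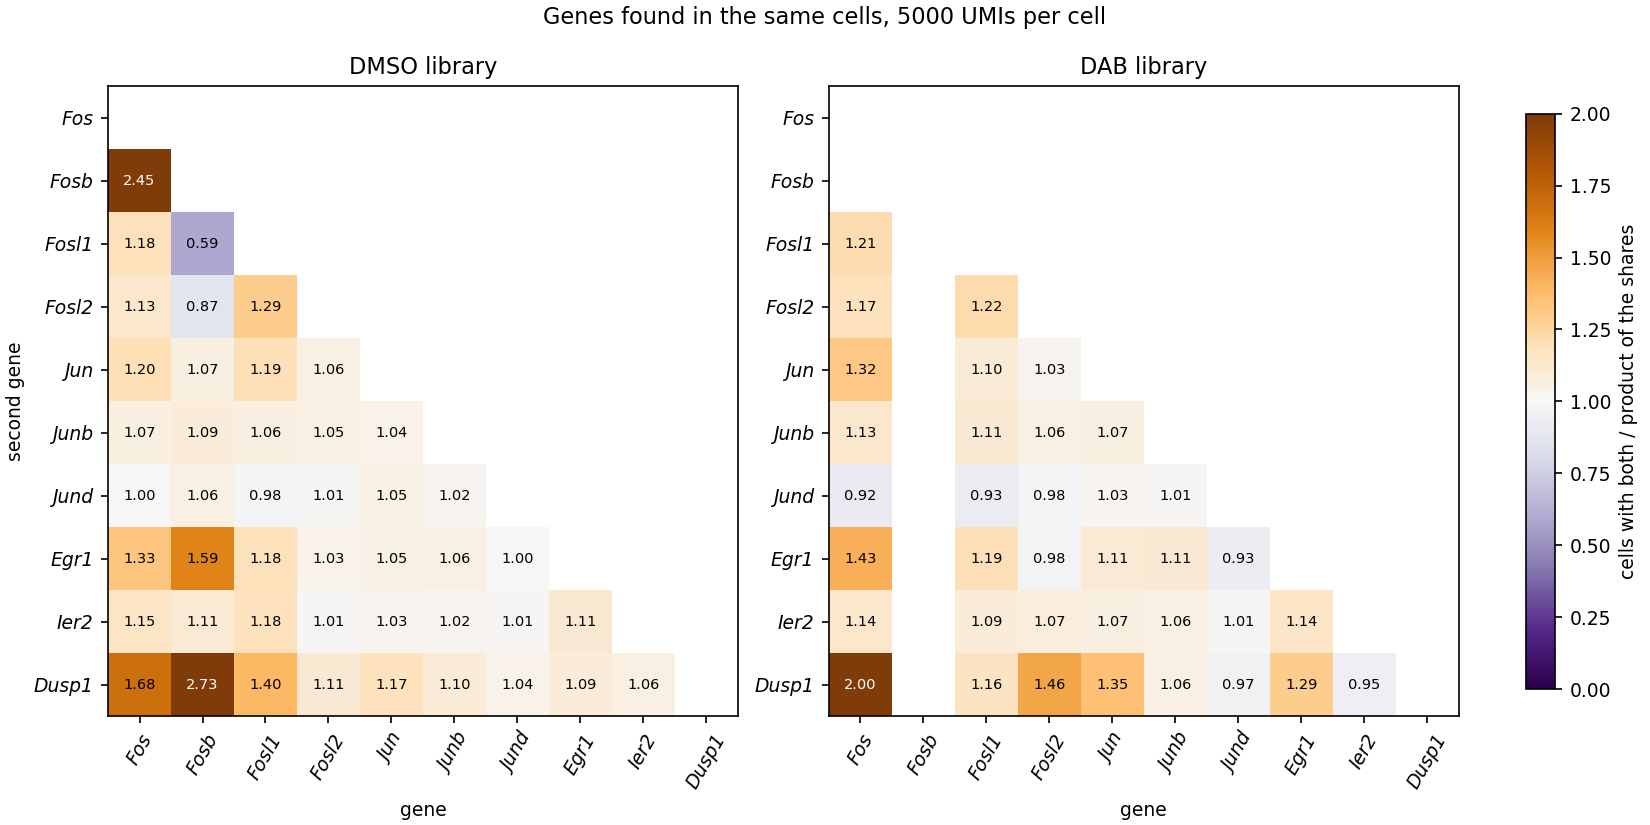
Number of cells with a UMI of both genes, divided by the number given by the product of the 2 genes' shares, for each pair in the DMSO library (left) and the DAB library (right), with cells thinned to 5000 UMIs. A value of 1 is the product of shares, colours end at 2, and pairs whose product gives fewer than 5 cells are blank. In DMSO the highest values are Fosb with Dusp1 (2.73) and Fos with Fosb (2.45), and pairs with Jund lie near 1.

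Over 50 points, 1 for each cluster and library with at least 50 cells, the genes outside the 10 whose log2 level ran most like that of Fos were Hdac5 (Pearson r = 0.83), 2810013P06Rik (0.79) and Arrdc3 (0.79). For Junb they were Zfp36 (0.84), Ier5 (0.79) and Per1 (0.78), for Jun Rassf1 (0.81), Alkbh5 (0.79) and Zxdc (0.78), and for Fosl2 Ell (0.85), Dop1b (0.85) and Atp7a (0.83). Among the members themselves Fos and Fosb were most alike (0.75) and Fosl1 and Jund least (−0.33). These values describe points that share libraries, depth and clusters, and they were chosen as the highest among 9602 genes.

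Other AP-1 genes and partners differed in both directions. Of 12 such genes, all with at least 100 UMIs, 3 were lower and 2 higher, with a median log2 ratio of 0.02. Over all genes tested 16.3% were lower and 13.9% higher, so these counts lie near the background. Batf3, a partner of Jun in dendritic cells, stood at 38.7 CPM in DMSO and 12.1 CPM in DAB (−1.67, −1.76 to −1.59), and the stress-induced Atf3 at 57.1 and 24.1 CPM (−1.24, −1.31 to −1.18). Jdp2, which dimerises with Jun and represses AP-1 sites, was higher in DAB, at 43.7 and 103 CPM (1.24, 1.19 to 1.29), as was Maf, at 4.58 and 7.80 CPM (0.77, 0.61 to 0.93). Mafk stood at 5.48 and 6.91 CPM (0.34, 0.18 to 0.49).

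Of the 34 other immediate early genes, 33 passed the floor, 11 of them lower and 5 higher in DAB, and their median log2 ratio was −0.30. The shares over all genes tested were 16.3% lower and 13.9% higher. The 3 with the lowest ratios were Zfp36, which encodes the mRNA decay factor tristetraprolin, at 159 and 62.0 CPM (−1.36, −1.40 to −1.32), Klf4 at 11.3 and 4.52 CPM (−1.32, −1.47 to −1.18) and Gadd45b at 65.0 and 26.0 CPM (−1.32, −1.38 to −1.26). The 3 with the highest were Myc at 46.2 and 79.6 CPM (0.78, 0.73 to 0.84), Dusp5, an ERK phosphatase, at 41.5 and 70.6 CPM (0.77, 0.71 to 0.82), and Egr3 at 7.63 and 12.3 CPM (0.69, 0.56 to 0.82). None of the 33 reached the ratio of Fos or Fosb. The median was −0.10 when cells were weighted equally.

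The kinases and promoter factors upstream of these genes differed little. Of 21, 1 was lower (Mrtfb, a coactivator of serum response factor, 27.0 and 19.0 CPM, log2 ratio −0.51) and 0 were higher, with a median of 0.03. Among all genes tested 16.3% were lower and 13.9% higher. Map2k4 stood at 109 and 79.8 CPM (−0.45), Mapk3, which encodes ERK1, at 175 and 145 CPM (−0.27), Crem at 9.63 and 13.5 CPM (0.49), Rps6ka1 at 79.5 and 97.7 CPM (0.30) and Elk1 at 5.12 and 6.26 CPM (0.29). These are RNA levels and say nothing of kinase activity.

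Genes with textbook AP-1 sites did not share a direction. Of 16, 7 were lower and 6 higher, with a median log2 ratio of −0.03, beside 16.3% lower and 13.9% higher over all genes tested. Timp1, an inhibitor of metalloproteinases, stood at 43.0 and 4.13 CPM (−3.38, −3.51 to −3.26), the metallothionein gene Mt2 at 219 and 81.1 CPM (−1.44, −1.47 to −1.40) and Hmox1, heme oxygenase, at 324 and 149 CPM (−1.12, −1.15 to −1.10). On the other side the chemokine gene Ccl2 stood at 19.7 and 101 CPM (2.35, 2.28 to 2.43), the collagenase gene Mmp13 at 12.6 and 31.8 CPM (1.33, 1.24 to 1.42) and Ccnd1, cyclin D1, at 13.7 and 33.9 CPM (1.31, 1.22 to 1.40). Fewer cells of a type and less RNA per cell cannot be told apart in such values over all cells, and Timp1 is among the leading genes of the immature monocyte-like cluster, which held 1205 DMSO and 365 DAB cells.

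Some heat shock genes, like Fos and Fosb, were lower in DAB, and others were higher. Of 11, 3 were lower and 2 higher, with a median log2 ratio of 0.09. These counts lie near the shares over all genes tested, 16.3% lower and 13.9% higher. The third lower gene, Hspb1, had 119 and 13 UMIs and was named after its values were seen. The inducible Hspa1a stood at 10.1 and 0.439 CPM (−4.53, −4.92 to −4.15) and Hspa1b at 9.13 and 0.566 CPM (−4.01, −4.36 to −3.68), and Dnajb1 at 36.6 and 29.6 CPM (−0.30, −0.37 to −0.24). The mitochondrial chaperone Hspd1 was higher, at 90.4 and 138 CPM (0.61, 0.57 to 0.65), as was Hsp90aa1, at 225 and 333 CPM (0.57, 0.54 to 0.59), and Dnaja1 stood at 94.2 and 125 CPM (0.41, 0.37 to 0.44).

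A UMI of Hspa1a or Hspa1b was found in 276 DMSO cells (3.06%) and 57 DAB cells (0.544%), and without these cells the log2 ratio of Fos was −2.32 and that of Fosb −5.12. This left most cells in place, and a cell without a UMI of these genes may still have expressed them. These ratios therefore cannot show the part of heat shock. In granulocyte progenitor-like cells Hspa1a was counted 31 times in DMSO and 43 times in DAB (13.3 and 15.3 CPM), where Fos was 74 and 18. In activated dendritic-like cells Hspa1a was counted 24 times and 1 time, where Fos was 14 and 10. In the other 7 classes Hspa1a had between 0 and 2 UMIs in DAB, and 219 and 2 in intermediate granulocyte-like cells. The part of heat shock in the Fos values was not tested.

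**Figure D5:**
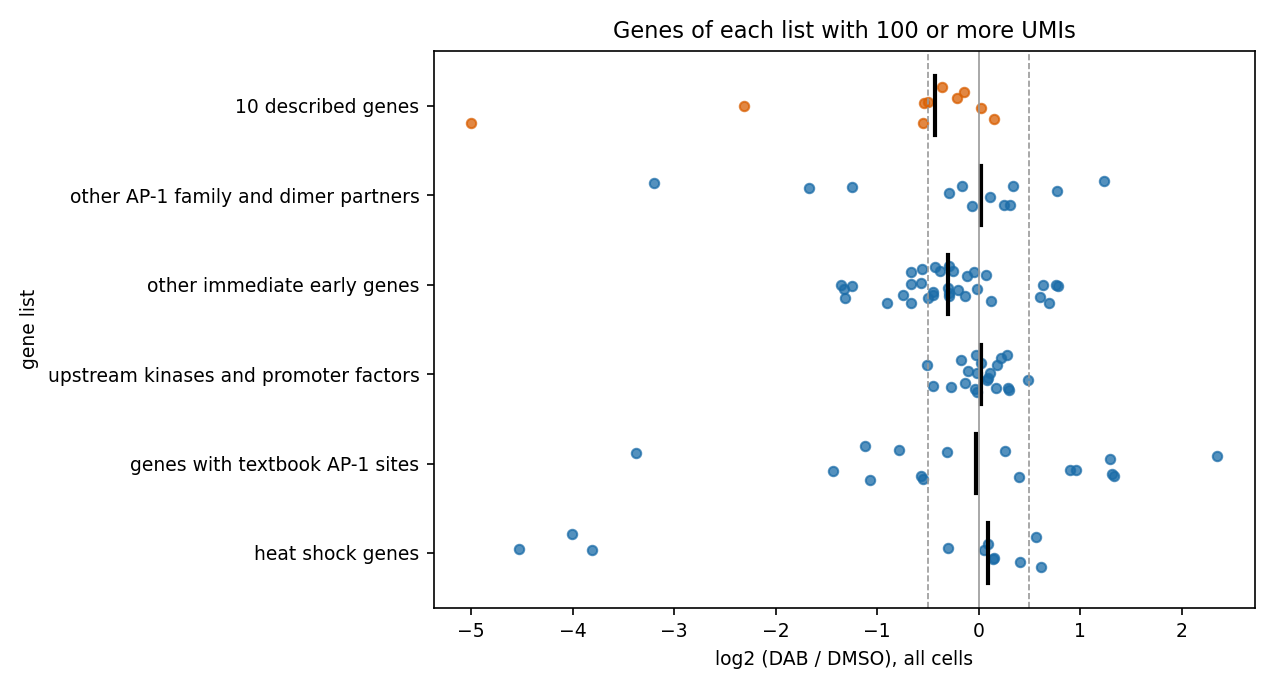
Log2 ratio of DAB over DMSO over all cells for each gene with at least 100 UMIs, by list, with the list's median as a black bar and dashed lines at −0.5 and 0.5. The 10 described genes are orange. Fosb (−5.00) and Fos (−2.31) lie apart from the other 8, upstream kinases and promoter factors cluster near 0, and genes with textbook AP-1 sites spread from −3.38 to 2.35.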

How the data were processed

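The deposited values were UMI counts per gene and cell barcode in 2 libraries, which the authors made by aligning reads to mm10 with Cell Ranger 7.0.0, from 10x Genomics 5′ v2 libraries, with no normalization. Whether intronic reads were counted was not stated. As deposited, the DMSO library held 9855 barcodes with 106792967 UMIs (median 8068) and the DAB library 11631 with 165506902 (median 10273). Groups came from the treatment labels.

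Barcodes with more than 10% mitochondrial UMIs and simulated-doublet calls (0.8% per 1000 cells) were removed, 768 doublets from DMSO and 1066 from DAB, and barcodes over 4 median absolute deviations (0 of them). Of 400 planted doublets 55.8% were called. Pearson residuals of 3000 variable genes, without the 10 members and the other immediate early genes (44 genes), were cleared of cell cycle and mitochondrial scores, reduced to 40 components, aligned by mutual nearest neighbours (20) and clustered by Leiden at resolution 0.9. A class name needed at least 3 of its markers, with most of its detected ones, at a log2 fold of at least 1 over the other clusters with 10 CPM added, and its own markers had to outnumber those of any other class among the 10 leading genes. For granulocytes, S100a8 or Csf3r had to exceed the rest. This naming rule was set after clusters of these data had been seen, and the members and lists were chosen with earlier results of these data known.

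UMIs were summed per library and set of cells. Ratios carry exact conditional binomial intervals, levels exact Poisson and shares exact Clopper-Pearson intervals, at 95%, for counting error only. With 1 library per condition there was no test. A count of 0 was taken as 3 for bounds and calls. Calls needed 100 UMIs in the 2 libraries together, and 20 within single clusters. On simulated data for the comparison of all cells (13316 genes, 200 of them changed), 95.3% of intervals held the true ratio and 0.64% of unchanged genes passed the fold. With 1 library per condition the spread between cultures is unknown, so 0.64% is not a rate of false calls for these libraries. Genes named beside the members were, of each of 5 lists, the 3 with the highest and lowest ratio among those with 500 UMIs, and, for Fos, Jun, Junb and Fosl2, the 3 genes of highest Pearson r of log2(CPM + 10) among genes with 1000 UMIs. The values of 1 gene of these lists are not reported here. Alternatives changed the filters, scaling, clustering, thinning and floors. Tools were leidenalg 0.10.2, igraph 0.11.9, scipy 1.17.1, numpy 2.4.6, matplotlib 3.10.9, pandas 2.3.3 and Python 3.11.15.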

Additional observations from a re-analysis of the deposited data

Results flagged for a closer look

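Jund and Dusp1 differed in opposite directions between classes of cells. The log2 ratio of Jund (DAB over DMSO) was 1.34 in B cell-like and 0.50 in granulocyte progenitor-like cells, and −0.56 in macrophage-like cells. The log2 ratio of Dusp1 was 0.69 in activated dendritic-like cells, and −1.001, −0.83 and −1.29 in intermediate granulocyte-like, mature PMN-like and mature monocyte-like cells. Each of these values had a counting interval on one side of 0, and the differences between classes were not tested, since each condition had 1 library.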

How the results depend on the processing

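Over all cells, Fos stayed between −2.39 and −1.67 and Fosb between −5.25 and −4.28 (log2 ratio) under 10 other settings, and the median of the 10 genes between −0.54 and −0.18. The number of members lower in DAB, 4, was 2 with cells weighted equally, 2 with cells thinned to 1500 UMIs and 2 at a log2 threshold of 1, and it was 5 without cells that held an Hspa1a or Hspa1b UMI, 6 with the DMSO mix of clusters and 3 over the described classes alone. The settings that left out cells, and the thinning to 5000 UMIs, were added after the data had been seen. The log2 ratio of the share of cells with a Fos UMI, −1.87, was −2.28 for at least 2 UMIs. That of Junb, −0.30, was −0.043 without thinning and −0.51 for at least 2 UMIs. The median of the other immediate early genes, −0.30, was −0.10 with cells weighted equally. By class, 24 of 69 values were lower (34.8%), and this share lay between 29.4% and 42.5% under 8 other settings, with 5 classes described when the libraries were not aligned. Of all genes tested, 16.3% were lower over all cells and 8.37% to 18.7% by class. These shares over all genes are given for the main setting only, so the counts under other settings have no background beside them. Jun in granulocyte progenitor-like cells turned from −0.69 to 0.61 when the cell cycle was not regressed out. Of 27 class values past the fold, 12 came inside it under at least 1 setting, and the cause was not tested. Some values inside the fold also passed it under another setting. Egr1 in mature PMN-like cells reached −1.15, and Jun and Dusp1 in chemokine-high granulocyte-like cells each reached −0.81. No paired analysis was possible because each condition had 1 library, and for the same reason no replicate could be left out. Depth limits Fosb most, with 25 UMIs in DAB.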

Other observations

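The basophil or mast cell-like cluster (Z, led by Prss34, Mcpt8 and Cpa3) held 50 DMSO and 85 DAB cells, too few for the classes described. Its Egr1 level was 276 CPM (105 UMIs) in DMSO and 96.1 CPM (81 UMIs) in DAB, a log2 ratio of −1.53. Jund stood there at 371 and 238 CPM (−0.64), Jun at 166 and 99.6 CPM (−0.74), and Fos at 15 and 8 UMIs.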
